A study of Homo sapiens with 12 samples.

Results

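The nuclear genes for the subunits of respiratory chain complexes II, III and IV and of ATP synthase (complex V) form a list of 38 genes, with 4, 9, 10 and 15 genes per complex. A gene's value was the sum of the ribosome footprints in its coding open reading frames (ORFs), named by their place inside the RefSeq gene. Such an ORF was found for 36 of the 38 genes: all 4 of complex II, all 9 of complex III, 9 of the 10 of complex IV and 14 of the 15 of complex V. All 36 passed the filter on low counts, among 4878 of the 6567 genes with a coding ORF. COX5B and ATP5PF fell outside the rule, because the ORF that overlaps COX5B begins 11 bases before the RefSeq gene and the one that overlaps ATP5PF runs 6811 bases past the gene's end.

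These complexes sit in the inner mitochondrial membrane. Complex II oxidises succinate to fumarate and hands the electrons to ubiquinone, complex III passes them on to cytochrome c, and complex IV passes them to oxygen. Complexes III and IV pump protons, and complex V lets the protons flow back through a ring of c subunits and makes ATP in its F1 head. Complex II is made of nuclear products alone, while complexes III, IV and V also hold subunits that mitochondrial ribosomes make from mitochondrial DNA. The mRNAs described here are translated in the cytosol and their products are imported.

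The footprints came from HEK293 cells, a human embryonic kidney line, kept in medium with serum (log phase), for 2 h without serum, or for 1 h in a salt solution with vitamins and serum but no amino acids. Lysates made with cycloheximide, which stalls ribosomes, were separated on gradients. The libraries were made from the monosome part of the gradient, where an mRNA carries 1 ribosome, and from the polysome part, where it carries several, each pooled, with 2 libraries in each of the 6 groups and 12 in all. The libraries of a group carry the letters A and B in the deposited table. Nothing says that they came from separate cultures, so p-values measure the spread between these libraries, which may be technical.

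Monosome libraries held 354506 to 1204002 footprints, of which 119947 to 346200 were in coding ORFs, and polysome libraries held 2477823 to 7683728, of which 1493881 to 5313462 were coding. A subunit's count in 1 library ran from 5 to 11816. Of 8 genes listed as traits of HEK293 cells, 3 were tested (VIM, NEFM and NEFL). Libraries with the same letter deviated together: the difference of B from A correlated between groups with r from 0.1606 to 0.866 over 15 pairs of groups. A second fit with the letter as a block is therefore given where it changed a count of calls. Single genes of the related lists are given without it in monosomes against polysomes. Footprints alone do not tell an mRNA's abundance from the number of ribosomes on it.

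The called ORFs are not always the annotated reading frame. Of the 36, 11 have the type CDS, 14 are truncated and 11 are variants, and 25 begin at a codon other than ATG. Their lengths run from 75 to 1677 nt with a median of 399. The ORF caller's own p-value was under 1e-4 for 27 of them. For 9 genes the deposited identifier joins several genes.

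Which fraction held the footprints of each subunit was asked first. Over the 3 conditions 6 subunits were higher in monosomes than in polysomes and 12 were lower (edgeR quasi-likelihood test, Benjamini-Hochberg adjusted p under 0.05), where 16.9% of all tested genes were higher and 21.5% lower. Those higher were ATP5F1E, UQCR11, UQCRQ, ATP5ME, COX8A and UQCR10, all small subunits with a called ORF of at most 213 nt. Those lower included the catalytic or electron-carrying subunits CYC1, UQCRFS1, SDHB and ATP5F1B and the c-subunit genes ATP5MC2 and ATP5MC3. The rest of the lower ones were SDHC, UQCRC1, COX7B, ATP5F1C, ATP5PO and ATP5PB. SDHA, which oxidises succinate, and the alpha subunit ATP5F1A did not pass in this fit. The median log2 ratio of monosome over polysome was -0.63 for the 36 subunits and -0.18 for all tested genes. With the letter as a block 8 were higher and 16 lower, against 23.8% and 30.1% of all tested genes. Among the 36, 6 had all 6 monosome libraries above all 6 polysome libraries, where 9.57% of all tested genes did, and 8 had all 6 below, where 12% of all did.

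**Figure D1:**
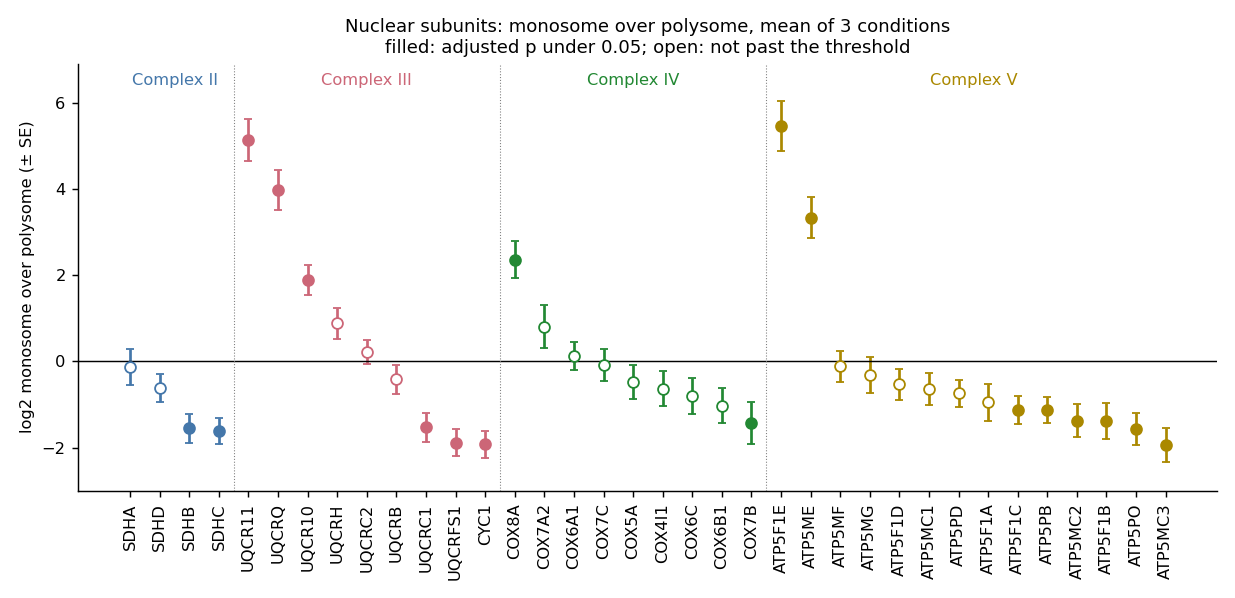
Log2 ratio of monosome over polysome footprints (vertical axis, mean of 3 conditions, bars are SE) for the 36 subunits, grouped by complex and ordered within each. Filled points passed an adjusted p of 0.05 in edgeR; ATP5F1E (5.46) and UQCR11 (5.13) stand highest and ATP5MC3 (-1.94) lowest.

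Complex II had no subunit higher in monosomes and 2 lower, with a median of -1.09. SDHC, a membrane anchor that helps to bind ubiquinone (ORF on chromosome 1, 161314406 to 161362433, hg38), had 124 to 204 CPM (footprints per 1000000 coding footprints, TMM-scaled) in the 6 monosome libraries (median 151) and 332 to 606 in the 6 polysome libraries (median 476). The ranges did not overlap, and the log2 ratio was -1.61 ± 0.31 (SE; adjusted p = 0.00110, edgeR). SDHB, the iron-sulfur subunit, ran from 159 to 277 CPM in monosomes and from 360 to 901 in polysomes, with a log2 ratio of -1.55 ± 0.34 (adjusted p = 0.00269, edgeR). SDHD, the other anchor, had -0.62 ± 0.32 (adjusted p = 0.140, edgeR). SDHA, the flavoprotein that oxidises succinate (chromosome 5, 225425 to 256420), had 44.3 to 115 CPM in monosomes (median 88.3) and 32.0 to 260.0 in polysomes (median 86.8). The monosome range lay within the polysome range, and SDHA's log2 ratio was -0.13 ± 0.42 (adjusted p = 0.826, edgeR). SDHA has near-identical pseudogenes, and how the authors divided reads among copies is not given in the sources used here.

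Complex III split in both directions, with 3 subunits higher, 3 lower and a median of 0.21. The 3 higher were small accessory subunits. UQCR11 (called ORF of 75 nt, chromosome 19, 1599440 to 1599514) had 1076 to 4320 CPM in monosomes (median 1565) and 21.6 to 106 in polysomes (median 49.0). Every monosome library of UQCR11 was above every polysome library, and the log2 ratio was 5.13 ± 0.48, a fold of 35.1 (adjusted p = 4.08e-06, edgeR). UQCRQ, from an ORF of 102 nt, ran from 1279 to 2538 CPM in monosomes and from 59.3 to 245 in polysomes, with 3.97 ± 0.46 (adjusted p = 2.98e-05, edgeR). UQCR10, whose ORF of 192 nt has the type CDS and starts at ATG, ran from 1664 to 3027 and from 292 to 1029, with 1.89 ± 0.34 (adjusted p = 0.000815, edgeR). UQCRH, the acidic hinge protein that faces cytochrome c1, had 0.88 ± 0.37 (adjusted p = 0.0711), just outside the threshold, and passed with the block (0.98 ± 0.26, adjusted p = 0.00191, edgeR).

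The 3 lower subunits of complex III were among those that carry its electrons or form its core. CYC1, cytochrome c1, had 70.9 to 129 CPM in monosomes (median 86.6) and 224 to 498 in polysomes (median 334). The ranges did not overlap, and the log2 ratio was -1.92 ± 0.31 (adjusted p = 0.000369, edgeR). UQCRFS1, the Rieske iron-sulfur protein, had -1.89 ± 0.32 (adjusted p = 0.000476, edgeR). UQCRC1, a core protein, had -1.54 ± 0.34 (adjusted p = 0.00295, edgeR), while its partner core protein UQCRC2 had 0.21 ± 0.28 (adjusted p = 0.585, edgeR). UQCRB, an accessory subunit at the ubiquinone site, had -0.42 ± 0.34 (adjusted p = 0.342, edgeR).

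In complex IV, whose catalytic core is encoded by mitochondrial DNA, 1 nuclear subunit was higher, 1 lower and 7 did not pass, with a median of -0.48. COX8A (chromosome 11, 63974678 to 63976320), with the shortest called ORF of the 9 (213 nt), had 691 to 2052 CPM in monosomes (median 1190) and 91.9 to 411 in polysomes (median 223). All monosome libraries of COX8A were above all polysome libraries, with a log2 ratio of 2.36 ± 0.43 (adjusted p = 0.000885, edgeR). COX7B (chromosome X, 77899554 to 77905261) had 137 to 986 CPM in monosomes (median 212) and 206 to 1276 in polysomes (median 690). Its ranges overlapped, its log2 ratio was -1.44 ± 0.49 (adjusted p = 0.0325, edgeR), and it was the lower subunit nearest the threshold. Just outside were COX6B1, at -1.03 ± 0.42 (adjusted p = 0.0635, edgeR), and, with a smaller ratio, COX6C at -0.81 ± 0.41 (adjusted p = 0.132, edgeR). Both passed with the block (adjusted p = 0.0113 and 0.0235, edgeR), as did COX7A2 in the other direction (1.07 ± 0.27, adjusted p = 0.00123). COX4I1, COX5A, COX6A1 and COX7C had ratios between -0.63 and 0.13 and passed in neither fit.

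Complex V had 2 subunits higher, 6 lower and a median of -0.85. ATP5F1E, the epsilon subunit of the F1 stalk (called ORF of 120 nt, chromosome 20, 59030306 to 59030425), had 1482 to 9324 CPM in monosomes (median 2723) and 43.6 to 151 in polysomes (median 66.1). All monosome libraries of ATP5F1E were above all polysome libraries, the highest being log phase A, and the log2 ratio was 5.46 ± 0.58, a fold of 44.1 (adjusted p = 1.28e-05, edgeR). ATP5ME, subunit e of the membrane part (ORF of 90 nt), ran from 1047 to 2052 CPM in monosomes and from 47.5 to 409 in polysomes, with 3.33 ± 0.49 (adjusted p = 0.000175, edgeR). The remaining membrane subunits ATP5MF and ATP5MG had -0.12 ± 0.35 and -0.31 ± 0.42 and did not pass.

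Of the other F1 subunits 2 were lower in monosomes. ATP5F1B, the catalytic beta subunit, had -1.39 ± 0.41 (adjusted p = 0.0162, edgeR) and ATP5F1C, the central gamma stalk, -1.13 ± 0.33 (adjusted p = 0.0155, edgeR). ATP5F1A, the alpha subunit, had -0.95 ± 0.43 (adjusted p = 0.0915) and passed only with the block (-0.82 ± 0.25, adjusted p = 0.00756, edgeR). ATP5F1D, the delta subunit, had -0.54 ± 0.37 (adjusted p = 0.260, edgeR). Of the outer stalk, which holds the F1 head still, ATP5PO had -1.58 ± 0.37 (adjusted p = 0.00433, edgeR) and ATP5PB -1.14 ± 0.30 (adjusted p = 0.00930, edgeR). ATP5PD had -0.74 ± 0.32 (adjusted p = 0.0749) and passed with the block (adjusted p = 0.00837, edgeR).

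The 3 c-subunit genes encode the same mature ring protein behind different import signals. ATP5MC3 (chromosome 2, 175178288 to 175181444) had 182 to 514 CPM in monosomes (median 382) and 654 to 2419 in polysomes (median 1254). Its ranges did not overlap, and its log2 ratio was -1.94 ± 0.38 (adjusted p = 0.00156, edgeR), the lowest of complex V. ATP5MC2 (chromosome 12, 53665314 to 53672620) had 280.2 to 427 CPM in monosomes (median 366) and 316 to 2240 in polysomes (median 726), with -1.38 ± 0.38 (adjusted p = 0.0118, edgeR). ATP5MC1 (chromosome 17, 48892893 to 48895769) had 137 to 296 and 138 to 543 CPM (medians 183 and 246), with -0.64 ± 0.36 (adjusted p = 0.176, edgeR). All 6 polysome libraries held more ATP5MC3 than ATP5MC1 per kilobase of called ORF. The 3 log2 ratios were not tested against each other.

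**Figure D2:**
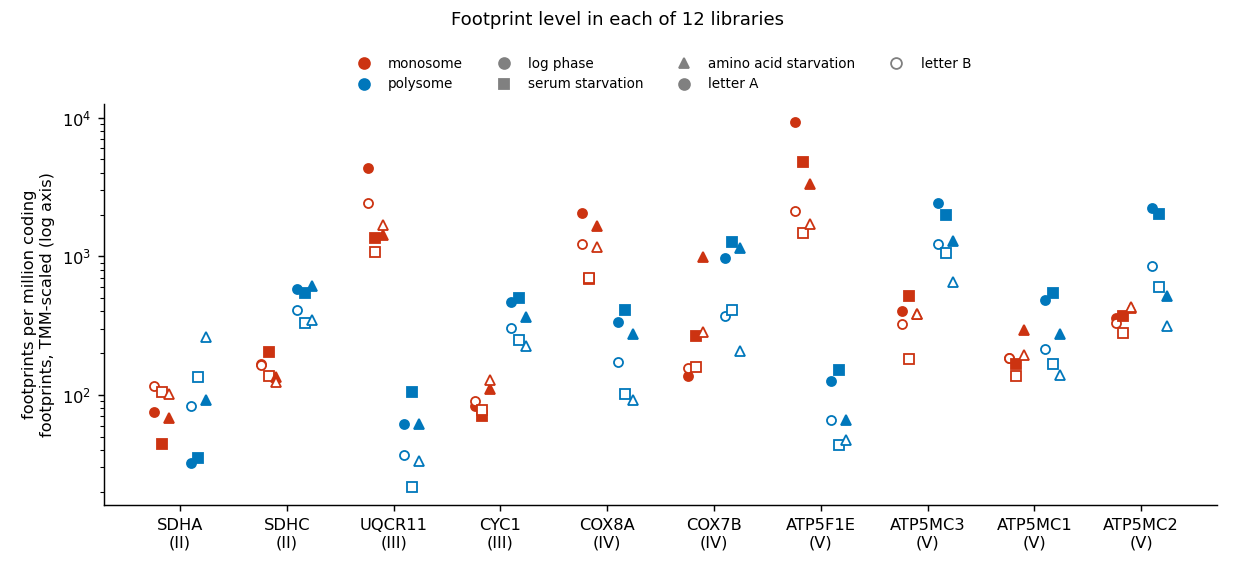
CPM (vertical axis, log scale) in each of the 12 libraries for the highest and lowest subunit of each complex by monosome over polysome ratio and for the 3 c-subunit genes. Red points are monosome and blue points polysome libraries, and filled points are letter A; UQCR11, COX8A and ATP5F1E separate fully upwards in monosomes, and SDHC, CYC1 and ATP5MC3 downwards.

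The 6 subunits higher in monosomes took 51.6% ± 8.25 (SD, n = 6 libraries) of the subunits' footprints in monosomes and 6.04% ± 1.46 (SD, n = 6) in polysomes. The 12 lower ones took 14.2% ± 3.35 in monosomes and 47.8% ± 7.21 in polysomes. Both sets were chosen by their ratio in these same libraries, so the direction of these shares follows from the choice. The evidence for those 6 ORFs differs from that for the rest. Apart from ATP5ME, their caller p-values were above 1e-4, from 0.00793 for COX8A to 0.930 for UQCR10, and leaving out ORFs above 1e-4 removes 5 of the 6. Overlapping ORFs of other types also lie in these genes, and with all ORF types inside each gene summed the 6 had ratios of 5.84 (ATP5F1E), 5.44 (UQCR11), 4.09 (UQCRQ), 3.38 (ATP5ME), 2.37 (COX8A) and 1.95 (UQCR10), each with an adjusted p of at most 0.00137 in edgeR. These sums include the coding counts that made the calls, so they are not separate evidence for the 6 ORFs. The other types alone were not tested.

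Summed over its subunits, complex II took 0.0706% ± 0.00272 (SD, n = 6) of coding footprints in monosomes and 0.154% ± 0.0234 in polysomes, a ratio of 0.458. Complex III took 0.859% ± 0.188 and 0.352% ± 0.0608, a ratio of 2.44. Complex II was lower in monosomes and complex III higher in all 6 pairs of libraries, with pair ratios from 0.337 to 0.559 and from 1.80 to 3.43. Complex IV took 0.569% ± 0.140 and 0.574% ± 0.243, and complex V 0.972% ± 0.282 and 0.957% ± 0.0409. For these the pair ratios ran on both sides of 1, from 0.564 to 2.38 and from 0.714 to 1.47. The ratio of complex III rests on its small subunits: with ORFs of caller p under 1e-4 alone it was 1.06. As shares of all footprints, coding or not, the ratios were 0.260 (II), 1.37 (III), 0.537 (IV) and 0.548 (V).

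**Figure D3:**
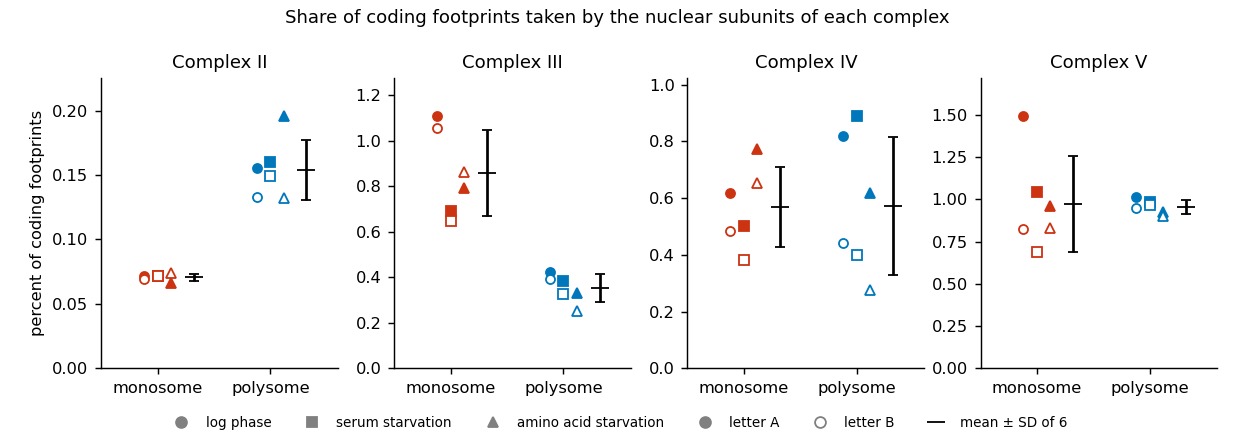
Percent of each library's coding footprints taken by the nuclear subunits of complexes II to V (vertical axes start at 0 and differ between panels), in monosome (red) and polysome (blue) libraries, with mean ± SD of 6 in black. Complex II sits near 0.0706% in monosomes and 0.154% in polysomes without overlap, and complex III is the other way round.

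The mitochondrially encoded partners of these complexes were read from ORFs on the mitochondrial chromosome, as shares of all footprints. The mitochondrial values sum 59 ORFs for complex IV and 16 ORFs each for complexes III and V. The nuclear value beside them sums coding ORFs only, so it is not the same measure. The 3 genes of complex IV took 3.10% ± 1.01 (SD, n = 6) in monosome and 0.0994% ± 0.0606 in polysome libraries. The coding ORFs of the nuclear subunits of complex IV took 0.193% ± 0.0634 and 0.360% ± 0.173. The 2 of complex V took 2.13% ± 1.38 and 0.00938% ± 0.00260, and the 1 of complex III took 0.424% ± 0.121 and 0.0122% ± 0.00476. For each of the 3 the gap between the means was larger than either SD. These genes are read by mitochondrial ribosomes, whose place in the gradients was not tested. The gaps therefore do not give the number of ribosomes on a mitochondrial mRNA.

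The ratio moved with the length of the called ORF. Across the 36 subunits Spearman's rho of ORF length with the monosome over polysome ratio was -0.65, and across all 4878 tested genes it was -0.13; these are descriptions across genes of the same 12 libraries, and genes are not independent replicates. Of 14 subunits with an ORF under 300 nt, 6 were higher in monosomes (42.9%), against 31.4% of 947 tested genes of that length, and 1 was lower. From 300 nt to under 600 nt 4 of 12 were lower (33.3%, against 23.0% of all) and none was higher, where 18.3% of all tested genes of that length were. From 600 nt to under 1200 nt all 5 were lower, where 34.7% of 1642 genes were. At 1200 nt or more 2 of 5 were lower and none higher, where 12.1% of 969 genes were lower and 15% higher. With the letter as a block 8 of the 14 under 300 nt were higher and 3 lower, where 41.8% and 11.5% of all were. It gave 5 of 12 lower from 300 nt to under 600 nt (31.4% of all) and 3 of 5 at 1200 nt or more (20.8% of all).

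**Figure D4:**
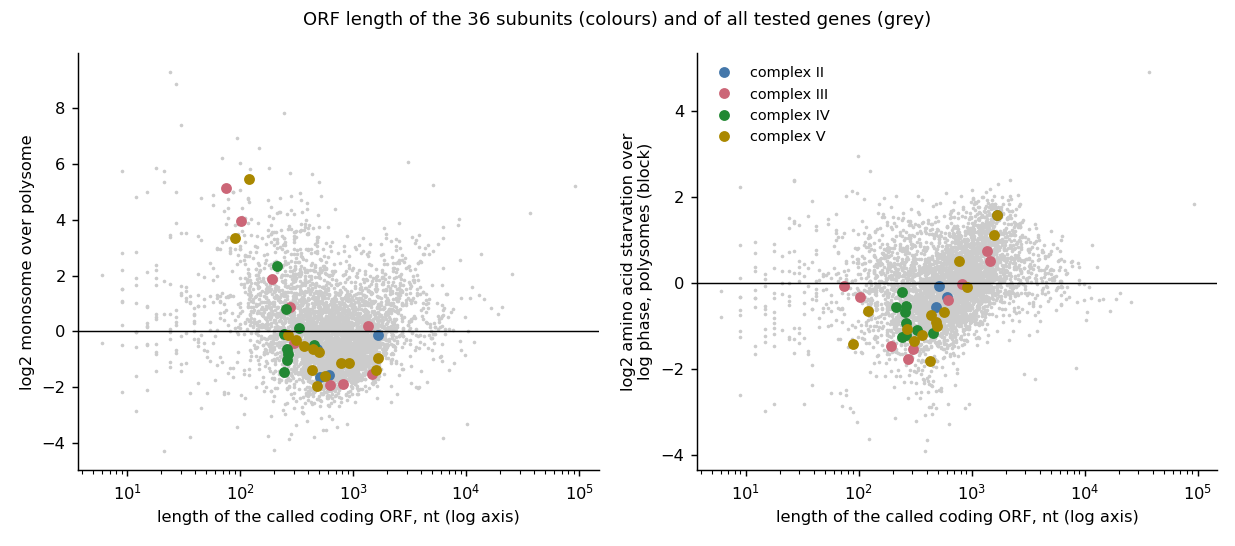
Length of the called coding ORF (horizontal axis, nt, log scale) against the log2 ratio of monosome over polysome (left) and the log2 change from log phase to amino acid starvation in polysomes with the letter as a block (right). Coloured points are the 36 subunits and grey points all tested genes; the subunits' Spearman's rho is -0.65 on the left and 0.54 on the right.

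Within a single condition each arm has 2 libraries, and fewer subunits passed. In log phase 5 were higher and 4 lower in monosomes (6.15% and 4.63% of all tested genes), without serum 3 and 2 (4.1% and 2.15%), and without amino acids 6 and 1 (5.41% and 1.44%). UQCR11, UQCRQ and ATP5F1E were higher in each of the 3. With the letter as a block the counts were 6 and 15 in log phase (16.4% and 17.8%), 6 and 12 without serum (14.6% and 14%), and 8 and 6 without amino acids (15.1% and 13.6%). Single libraries moved the counts without the block. In log phase fewer passed when monosome A, monosome B or polysome A was left out. In amino acid starvation fewer passed when any 1 of its own libraries was left out. In serum starvation fewer passed without either of its monosome libraries or without monosome B of amino acid starvation. More passed there without log phase polysome A. Calls over all tested genes in these fits are not given here, so the shifts are not a result about the subunits.

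Amino acid starvation was then compared with log phase in polysomes. Without the block no gene of the 4878 passed (0%), with 409 genes and 5 subunits at an unadjusted p under 0.05, and DESeq2 called 93 genes (9.29% of the 1001 it gave an adjusted p), 4 of them among the 33 subunits with one. With the block 2 subunits rose and 4 fell (edgeR), where 5.23% of all tested genes rose and 4.74% fell. The 2 that rose, SDHA and ATP5F1A, have the longest called ORFs of their complexes, and those that fell were the c-subunit gene ATP5MC2 and the accessory subunits UQCRH, UQCRB and UQCR10 of complex III. The median log2 change was -0.65 for the subunits and -0.07 for all tested genes. Without the block the median was -0.74 for the subunits, -0.81 for 36 tested nuclear subunits of complex I and 0.87 for 9 citrate cycle enzymes. These calls rest on few libraries. With the block, they were lost without log phase polysome A or without either polysome library of amino acid starvation. Their number rose without either polysome library of serum starvation, or without any 1 of the monosome libraries of log phase or amino acid starvation. Calls over all tested genes in these fits are not given here, so the shifts are not a result about the subunits.

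SDHA had 32.0 and 82.5 CPM in log phase polysomes (A and B) and 91.0 and 260.0 after amino acid starvation. It was higher in both letters, by 1.51 and 1.66 on the log2 scale, though B in log phase lay close to A after starvation, and the blocked fit gave 1.59 ± 0.37 (adjusted p = 0.00838, edgeR). ATP5F1A had 201 and 534 CPM in log phase and 638 and 1503 after starvation, and the change was 1.58 ± 0.43 (adjusted p = 0.0184, edgeR). ATP5F1A's groups did not overlap. ATP5F1B, its partner in the F1 head, went from 401 and 1530 to 1519 and 2169 CPM, at 1.11 ± 0.49 (adjusted p = 0.141, edgeR).

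ATP5MC2 had 2240 and 852 CPM in log phase polysomes (A and B) and 521 and 316 after amino acid starvation. Both starved libraries lay below both log phase libraries, and the change was -1.80 ± 0.46 (adjusted p = 0.0137, edgeR with the block). ATP5MC3 went from 2419 and 1221 to 1288 and 654 CPM, at -0.91 ± 0.43 (adjusted p = 0.178), and ATP5MC1 from 486 and 215 to 277 and 138, at -0.73 ± 0.39 (adjusted p = 0.232, edgeR with the block). Both were lower in each letter, and neither passed.

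UQCRH had 1458 and 670 CPM in log phase polysomes and 402 and 215 after starvation, with a change of -1.76 ± 0.44 (adjusted p = 0.0135, edgeR with the block). UQCRB went from 1457 and 549 to 386 and 269.1, at -1.53 ± 0.43 (adjusted p = 0.0225), and UQCR10 from 966 and 922 to 399 and 292, at -1.46 ± 0.47 (adjusted p = 0.0441, edgeR with the block). For all 3 both starved libraries lay below both log phase libraries. UQCRH has a near-identical gene copy, UQCRHL, so its count is uncertain. Just outside the threshold were ATP5ME at -1.40 ± 0.48 (adjusted p = 0.0573) and ATP5MG at -1.36 ± 0.47 (adjusted p = 0.0611, edgeR with the block).

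By complex, all 9 measured subunits of complex IV had a negative change with the block, from -1.26 to -0.20 with a median of -0.93, and none passed. The one positive value among them without the block, COX7B in that fit, was 0.01. In complex V the 3 positive values were those of ATP5F1A, ATP5F1B and ATP5PB, and in complex III those of UQCRC1 and UQCRC2. Within letters 26 of the 36 subunits were lower after starvation in both A and B, 5 were higher in both and 5 differed in direction. The medians were -0.85 in A and -0.61 in B. Counts within letters over all tested genes are not given here. In the fit without the block 19.4% of the subunits and 45.8% of all tested genes had a change above 0. Scaling by library size instead of TMM moved the median of all genes by 0.31 in this comparison; with it and the block the subunits' median was -0.33, and 2 rose and 2 fell.

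**Figure D5:**
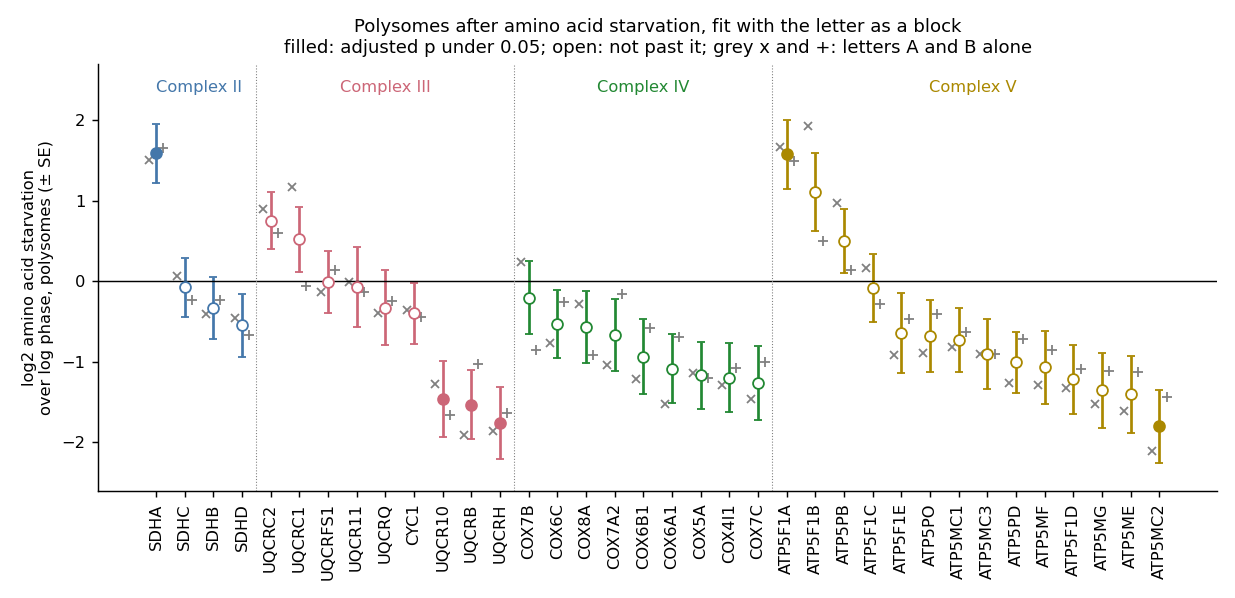
Log2 change from log phase to amino acid starvation in polysomes (vertical axis, fit with the letter as a block, bars are SE) for the 36 subunits by complex; grey crosses and plus signs are the changes within letters A and B alone. Filled points passed an adjusted p of 0.05: SDHA and ATP5F1A above 0, and UQCR10, UQCRB, UQCRH and ATP5MC2 below.

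This comparison, too, moved with ORF length, and length also moved with the letter. The rho of Spearman for ORF length with the blocked change was 0.54 across the subunits and 0.35 across all tested genes. Of the 5 subunits with an ORF of 1200 nt or more 2 rose, where 14.3% of all 969 such genes did, and of the 26 shorter than 600 nt the 4 named above fell. They were 2 of 14 subunits under 300 nt, where 7.6% of 947 genes fell, and 2 of 12 from 300 nt to under 600 nt, where 9.09% of 1320 did. The difference of B from A in serum-starved polysomes had a rho with length of 0.84 across the subunits, and 0.61 in both log phase and amino acid-starved polysomes. The part of ORF length in the change was not tested.

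Many mRNAs of the translation machinery begin with a C followed by a run of pyrimidines, and such a start is known to make translation sensitive to amino acid supply. The RefSeq starts were therefore searched, on the sense strand only, for a C at the first transcribed base followed by 4 bases that are each C or T. RefSeq (GRCh38.p14) gave a start for 28 of the 36 subunits, and 7 of these (25.0%) had the tract at a start, against 6.24% of 15843 protein-coding genes. The 15843 include genes that were not tested here. Among all tested genes with a RefSeq start 366 had the tract and 3638 did not. The 7 subunits were UQCRH of complex III, COX4I1 and COX7C of complex IV, and ATP5F1E, ATP5MC2, ATP5MG and ATP5PO of complex V. No start of SDHA, SDHB or SDHD had it, nor did those of UQCR10 and ATP5F1A. Each window below runs from 10 bases before the start to 20 bases after, 5′ to 3′, with the first 5 transcribed bases in capitals; the first 3 carry the tract and the last 3 belong to subunits that passed without it.
UQCRH, chr1:46303688-46303717, plus strand: cttacaagtcCTTCTtgatcctgaactggg
ATP5MC2, chr12:53676064-53676093, minus strand: cgctgctccgCCCCTctctgtcttctctgc
COX7C, chr5:86617931-86617960, plus strand: tcccatctttCTTTTcagtccttgcgcacc
UQCR10, chr22:29767359-29767388, plus strand: cagcgcaggcGCGGTggcgcgagttggact
SDHA, chr5:218310-218339, plus strand: cagtctgcgcAGGGActggcgggactgcgc
ATP5F1A, chr18:46098277-46098306, minus strand: gcggctcggcCATTTtgtcccagtcagtcc
ATP5MC2 has 3 RefSeq starts, of which the one shown is the only one with the tract.

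The 7 subunits with the tract had changes in amino acid-starved polysomes from -1.80 to -0.64, with a median of -1.26, and 2 of them (UQCRH and ATP5MC2) fell. The 21 without it ranged from -1.46 to 1.59 with a median of -0.33, and 1 of them (UQCR10) fell. UQCRB, which also fell, had no RefSeq start and is in neither set. Over all tested genes with a RefSeq start the tract was present in 366, with a median of -0.22 and 16.7% called lower, and absent in 3638, with a median of -0.06 and 3.38% called lower. The 2 sets of subunits also differed in ORF length, with medians of 276 and 453 nt. A match of letters is not a mapped start site in these cells, and the part of the tract in the change was not tested.

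In monosomes no subunit passed between amino acid starvation and log phase in edgeR, with or without the block, where 0% of all tested genes did without it and 0.923% with it. At an unadjusted p under 0.05 there were 2 subunits without the block, where 235 of all 4878 genes were, and 5 with it. Other fits did make calls: edgeR on the compared groups alone called 2 subunits (4.08% of all tested genes), and DESeq2 with the block called 3 of 36 (5.7% of the 3176 genes with an adjusted p). DESeq2 without the block called none of the 22 subunits with an adjusted p (6.7% of 433 genes). The subunits' median was 0.29 without and 0.23 with the block, and 25 of the 36 were above 0 in both. How the ratio of monosomes over polysomes changed under amino acid starvation did not pass for any subunit in edgeR either (0% of all tested genes without the block, 1.11% with it), with 3 and 15 subunits at an unadjusted p under 0.05. In the blocked fit its median was 1.04 for the subunits and 0.01 for all tested genes, and 27 of the 36 values were positive (75.0%, against 50.2% of all tested genes). All 9 of complex IV were positive, from 0.38, with a median of 1.45. Without the block the median change of the ratio was 1.12 for the subunits and 1.20 for the complex I subunits, of which 86.1% were positive. It was -0.59 for the citrate cycle enzymes. The nearest to the threshold were ATP5PD, at 1.86 ± 0.56 (adjusted p = 0.122), and ATP5MC2, at 2.12 ± 0.65 (adjusted p = 0.124, edgeR with the block). DESeq2 with the block called 6 of the 35 subunits with an adjusted p, where it called 9.4% of 1852 such genes. Without the block it called none of 17, where it called 9.73% of 339. This ratio and the comparison in polysomes share the same polysome libraries.

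Serum starvation, compared with the same log phase libraries, gave no call among the subunits in edgeR. In polysomes 0% of all tested genes passed in either fit, and the subunits' median was -0.02 without and -0.11 with the block. In monosomes 0% passed without and 0.0205% with the block, and the subunits' medians were -0.10 and -0.15. The change of the ratio gave 0% and 0.0205% of all tested genes and no subunit, with a subunit median of -0.10 and -0.07. Within letters 12 subunits were lower in polysomes of both A and B, 9 were higher in both and 15 differed in direction. In the fit without the block 50% of the subunits and 51.4% of all tested genes had a polysome change above 0. DESeq2 also called no subunit in these 3 comparisons.

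Other genes of the same pathway were read from lists. The shares of all tested genes beside every list are 16.9% higher and 21.5% lower in monosomes. With the letter as a block they are 23.8% and 30.1%. Of 36 tested nuclear subunits of complex I, which feeds electrons from NADH into the chain, 7 were higher and 13 lower in monosomes, with a median of -0.41. With the letter as a block 7 were higher and 15 lower. NDUFV3 had 1.98 ± 0.31 (adjusted p = 0.000258), NDUFC1 2.20 ± 0.42 (adjusted p = 0.00123) and NDUFA3 2.02 ± 0.39 (adjusted p = 0.00129), while NDUFS4 had -1.73 ± 0.30 (adjusted p = 0.000573, edgeR). Of 32 tested assembly factors of complexes II to V 12 were higher and 6 lower (14 and 9 with the block), with a median of -0.20. Those with the smallest p were COX14 (4.10 ± 0.34, adjusted p = 1.81e-06), UQCC3 (4.27 ± 0.48, adjusted p = 2.43e-05), COX20 (3.49 ± 0.44, adjusted p = 5.27e-05) and COX17 (2.96 ± 0.40, adjusted p = 9.85e-05, edgeR), all small proteins that build complexes III or IV.

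Of 7 carriers and channels that move adenine nucleotides, phosphate and other solutes 1 was higher (the ADP/ATP carrier gene SLC25A6, 1.11 ± 0.27, adjusted p = 0.00548) and 4 were lower, among them its sister gene SLC25A5 (-1.68 ± 0.36, adjusted p = 0.00247, edgeR). VDAC2 had -1.21 ± 0.28 (adjusted p = 0.00414) and VDAC1 -0.95 ± 0.29 (adjusted p = 0.0179, edgeR). Of 7 other subunits and regulators ATP5MK, a small ATP synthase membrane protein, was higher (3.05 ± 0.47, adjusted p = 0.000284) and CYCS, cytochrome c, was lower (-1.37 ± 0.36, adjusted p = 0.00855, edgeR). Of 9 citrate cycle enzymes none was higher, and FH (-1.09 ± 0.36, adjusted p = 0.0273) and SUCLG1 (-1.26 ± 0.43, adjusted p = 0.0302, edgeR) were lower. With the letter as a block 6 citrate cycle enzymes were lower and none higher. The other subunits and regulators then had 2 higher and 3 lower, and the carriers and channels 1 higher and 5 lower.

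In polysomes after amino acid starvation, with the block, the complex I subunit NDUFA9 rose (1.24 ± 0.38, adjusted p = 0.0370, edgeR) and NDUFA3 fell (-1.44 ± 0.43, adjusted p = 0.0313, edgeR). Of the citrate cycle enzymes DLD (1.77 ± 0.43, adjusted p = 0.0109) and IDH3B (1.22 ± 0.39, adjusted p = 0.0464, edgeR) rose and none fell. COX15 rose (1.77 ± 0.42, adjusted p = 0.00954) and COA3 fell (-1.48 ± 0.41, adjusted p = 0.0213, edgeR) among the assembly factors. SLC25A6 (-1.25 ± 0.37, adjusted p = 0.0327) and ATP5MJ, another small ATP synthase protein (-1.29 ± 0.39, adjusted p = 0.0349, edgeR), fell.

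The ORFs that overlap the 2 genes outside the rule were tested under their identifiers. The one over COX5B had a log2 monosome over polysome ratio of -0.42 ± 0.46 (adjusted p = 0.485) and a blocked change in amino acid-starved polysomes of -1.37 ± 0.46 (adjusted p = 0.0535, edgeR). The one over ATP5PF had a ratio of 1.20 ± 0.49 (adjusted p = 0.0664), which passed with the block (1.55 ± 0.33, adjusted p = 0.000291, edgeR), and a blocked change of -0.57 ± 0.54 in polysomes (adjusted p = 0.540).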

How the data were processed

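The members and the gene lists were chosen with earlier results of these data known. The authors deposited 1 table of 149028 ORFs, the output of the caller PRICE per its title, with expected counts of footprints for each of 12 libraries, in which a footprint that fits several ORFs is split between them. The authors' p-value per ORF came with it and served for 1 alternative (p under 1e-4). The deposited Start and Range scores were not used. Bowtie 1.0 and hg38 are named in the submitters' processing notes without a role.

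No codon entered more than 1 ORF, with CDS, Trunc and Variant types (coding) taken first, which kept 124829 ORFs, 7031 of them coding. ORFs were named by position and strand inside a protein-coding RefSeq gene (GRCh38.p14); a read-through gene gave way to a single gene, and identifiers that join genes were split by ORF. This named 6387 of 6567 genes. It differs from naming whole identifiers, by which several members would be left out. Expected counts were summed per gene and rounded. Genes were kept with filterByExpr (minimum count 10, minimum total 15), which left 4878.

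The main model was edgeR 4.0.16 quasi-likelihood (R 4.3.3) on 6 group means of all 12 libraries with TMM scaling, two-sided, Benjamini-Hochberg adjusted over all tested genes. Levels are TMM-scaled footprints per 1000000 coding footprints (CPM). Printed changes are log2 with SE. The letter block adds A or B. Letters were taken to pair the libraries because all 15 correlations in these same data were above 0.1. The labels do not say which replicate a letter is, so the pairing is not given by them. Common biological coefficients of variation were 0.4355 without and 0.2744 with the block. Alternatives tried were scaling by RLE or by library size, DESeq2 1.42.0, no filter or 50 counts in 2 libraries, CDS-type ORFs, all coding ORFs as deposited, the compared groups alone, and leaving out each library; summing all ORF types in a member gene was added after seeing the data.

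All 38 members could be named; values in every library were set for the highest and lowest subunit of each complex, the subunits called in starved polysomes, and the c-subunit genes, and from each list the 4 genes with the smallest p. A gene of the complex I list is not reported here for amino acid starvation.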

Additional observations from a re-analysis of the deposited data

Results flagged for a closer look

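Inside the genes of the 36 subunits 372 kept ORFs of other types (upstream, internal, downstream, non-coding and orphan) held footprints outside the main measurement. They came to 48.03% of the subunits' coding footprints in monosomes and 33.0% in polysomes. Internal ORFs and upstream ORFs that overlap the reading frame were the largest classes, at 16.6% and 16.1% in monosomes and 9.35% and 9.63% in polysomes. UQCR11 holds 1 upstream overlapping ORF with 1066 footprints in monosomes and 219 in polysomes. With all types summed, the coding counts included, the same numbers of subunits were called over the 3 conditions, 6 higher and 12 lower in monosomes.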

How the results depend on the processing

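The fit with the letter as a replicate block is given first, since libraries with the same letter deviated together. It called 24 subunits between monosomes and polysomes over the 3 conditions against 18 without it, 21 against 9 in log phase, 18 against 5 without serum, 14 against 7 without amino acids, and 6 against 0 between amino acid starvation and log phase in polysomes. The replicate block moved no other count of calls among the subunits past 1.5 times.

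Over the 3 conditions CDS-type ORFs alone gave 5 and a caller p under 1e-4 gave 11. Fewer subunits have an ORF under these 2 settings. With a caller p under 1e-4 COX7B, ATP5F1B and ATP5F1C kept an ORF and still lost their call. In log phase DESeq2 gave 14, DESeq2 with the block 19, the block with RLE or library-size scaling 18 each, the block with all ORF types 20, and CDS-type ORFs or a caller p under 1e-4 gave 2 each. Without serum the same settings gave 11, 17, 15, 17, 15, 0 and 0, and the compared groups alone 3. Without amino acids DESeq2 with the block gave 17, the block with RLE scaling 14, with library-size scaling 17 and with all ORF types 16, CDS-type ORFs 3, a caller p under 1e-4 gave 1 and the compared groups alone 12. In polysomes of amino acid starvation against log phase DESeq2 gave 4, DESeq2 with the block 11, the block with RLE scaling 6, with library-size scaling 4 and with all ORF types 6. In monosomes DESeq2 with the block gave 3 and the compared groups alone 2. For the change of the ratio under amino acid starvation DESeq2 with the block gave 6. Over all genes DESeq2 called 839 of 4878 in log phase and 1637 with the block. Without serum it called 640 of 4783, and 1407 of 4878 with the block. Without amino acids it called 1445 of 4878 with the block. In polysomes of amino acid starvation against log phase it called 93 of 1001, and 572 of 4121 with the block. Where no share of all tested genes is given, here or below, a count is not a result about the subunits. The causes of these differences between settings were not tested.

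Leaving out 1 library gave 15 to 21 calls over the 3 conditions, 3 to 13 in log phase, 1 to 9 without serum and 0 to 8 without amino acids, and 0 in each of the 6 comparisons with starvation. With the block the ranges were 22 to 26, 14 to 21, 6 to 20 and 9 to 18, and 0 to 14 for amino acid starvation in polysomes; without serum, leaving out monosome A gave 11 and monosome B 6, and without amino acids leaving out monosome B gave 9.

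The ratio of mean shares of complex II was 0.572 with all coding ORFs as deposited and 0.2596 as shares of all footprints, that of complex III 1.062 with a caller p under 1e-4 and 1.373 of all footprints, that of complex IV 0.5373 of all footprints, and that of complex V 0.6224 with CDS-type ORFs and 0.5479 of all footprints. Leaving out 1 library gave 0.4449 to 0.4838 (II), 2.301 to 2.563 (III), 0.8988 to 1.114 (IV) and 0.9078 to 1.075 (V).

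Of the monosome over polysome ratios of single subunits, 6 that did not pass in the main model changed sign. SDHA had 0.0671 with DESeq2 and the block, 0.0534 with RLE and the block, 0.0832 with the filter of 50, 0.1688 with a caller p under 1e-4, 0.0710 with all ORF types and 0.1920 with these and the block; leaving out 1 library gave -0.4247 to 0.3196. COX7C had 0.0490 with the block, 0.0935 with DESeq2, 0.2006 with DESeq2 and the block, 0.0937 with RLE, 0.0118 with library-size scaling, 0.2003 and 0.0805 with these and the block, 0.1471 with the filter of 50, 0.2529 with a caller p under 1e-4, 0.1701 with all ORF types and 0.2723 with these and the block; leaving out 1 library gave -0.2528 to 0.2066. ATP5MF had 0.0542 with DESeq2, 0.1089 with DESeq2 and the block, 0.0545 with RLE, 0.1091 with RLE and the block, 0.1118 with the filter of 50, 0.1096 with CDS-type ORFs, 0.2182 with a caller p under 1e-4, 0.0755 with all ORF types and 0.1579 with these and the block; leaving out 1 library gave -0.2985 to 0.2147. ATP5MG had 0.0745 with DESeq2 and the block, 0.0752 with RLE and the block, 0.0318 with a caller p under 1e-4 and 0.0121 with all ORF types and the block; leaving out 1 library gave -0.5012 to 0.0756. COX6A1 had -0.0604 with all coding ORFs as deposited, and -0.0802 to 0.2552 when 1 library was left out; UQCRC2 then had -0.0034 to 0.4180.

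The 6 subunits higher in monosomes kept their direction and their call in all alternatives that could test them (25 or 26 each). Of the 12 lower ones 9 did so too, and 3 kept their direction and lost their call in some. COX7B lost it in 8 of 27, with RLE scaling, the filter of 50 or a caller p under 1e-4 (adjusted p = 0.0547, 0.0727 and 0.0964, edgeR), and without log phase monosome A or B, amino acid starvation monosome B or polysome A, or serum starvation monosome B (0.0675, 0.0595, 0.107, 0.152 and 0.104). ATP5F1B lost it in 3 of 27, with a caller p under 1e-4 (0.0595) and without amino acid starvation monosome B (0.0531) or log phase polysome B (0.0611). ATP5F1C lost it in 3 of 26, with a caller p under 1e-4 (0.0705) and without amino acid starvation monosome B (0.053) or serum starvation monosome B (0.0523). With RLE scaling the median over all genes of the monosome over polysome ratio rose by 0.14.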
